A study of Mus musculus with 4 samples.

Results

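The genes of cholesterol and fatty acid synthesis were read on 4 single-colour arrays of mouse regulatory T (Treg) cells, the suppressive CD4+ T cells that depend on the transcription factor Foxp3. Of 32 listed genes, 30 had at least 1 probe set whose platform gene symbol was exactly that of the gene, out of 18193 genes on the arrays. These 30 genes had 69 probe sets, and Acat2 and Nr1h2 were not analysed here. The study set Foxp3-deleted cells (2 arrays), which carried a loxP-flanked Foxp3 gene and had been treated with HR-MMPCreGFP, against cells treated the same way whose Foxp3 gene was wild type (2 arrays). Both groups consisted of T cells positive for CD4, YFP and Ly5.2, with YFP as the mark of exposure to Cre recombinase, taken 6 weeks after adoptive transfer. The labels give neither age, sex nor tissue, nor whether the replicates came from separate animals, so every p-value rests on a spread between samples that may be technical. The comparison asked which transcripts differ once mature Treg cells lose Foxp3.

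Cells make cholesterol from acetyl-CoA through the mevalonate pathway, and fatty acids from the same precursor through acetyl-CoA carboxylase and fatty acid synthase. Both pathways are switched on by the sterol regulatory element-binding proteins (SREBPs), which stay in the endoplasmic reticulum with the sterol sensor SCAP and the retention protein INSIG while sterol is plentiful, and otherwise move to the nucleus after cleavage. The liver X receptors (LXRs) act in the opposite state, when oxidised sterols build up, and raise sterol export through the transporters ABCA1 and ABCG1. In T cells this program is known to rise with activation and growth, and in Treg cells the mevalonate pathway is known to be needed for suppressive function.

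Over all genes tested, 0 passed an adjusted p of 0.05 in limma and 859 had an unadjusted p under 0.05. Foxp3 itself had log2 intensities of 8.77 and 8.75 in deleted cells compared with 11.40 and 11.23 in wild-type cells, so that both deleted arrays lay below both wild-type arrays. All 5 Treg markers read had a lower mean in deleted cells, with a summed intensity of 2731 and 4674 compared with 17589 and 18828 in wild-type cells. Both CD8 T cell markers (Cd8a and Cd8b1), the 1 gamma delta T cell marker measured (Sox13) and 3 of 5 measured B cell markers (Cd79a, Ebf1 and Pax5) lay below a log2 intensity of 4 on all 4 arrays. Of the other B cell markers, Ms4a1 reached 4.12 at most, and Cd79b read 4.04 and 4.94 in deleted cells compared with 6.58 and 6.49 in wild-type cells. Of 2 measured natural killer cell markers, Ncr1 lay below 4, and Nkg7, a granule protein gene that cytotoxic T cells also express, read 11.22 and 10.23 in deleted cells compared with 8.64 and 8.80 in wild-type cells. The groups did not overlap for Cd79b or Nkg7, and the part of such cells in the results was not tested. Wild-type replicate 1 stood somewhat apart. Its correlation with the other 3 arrays over all probe sets was 0.964, 0.966 and 0.975, while the other 3 correlated with each other at 0.975 to 0.982. Deleted replicate 1 correlated with wild-type replicate 2 (0.982) as closely as with deleted replicate 2 (0.982).

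No shift of the synthesis genes was detectable between Foxp3-deleted and wild-type cells. A gene was tested if its brightest probe set had a mean log2 intensity of at least 4 over all arrays, which left 27 of the 30 genes. Of these 27, 18 had a higher and 9 a lower mean in deleted cells, and the median log2 difference was 0.11, beside -0.02 over all 8629 genes tested, of which 48.1% had a higher mean. None of the 27 passed an adjusted p of 0.05 in limma, where 0% of all genes passed, and the smallest adjusted p among the 27 was 0.60. At an unadjusted p under 0.05, 0 of the 27 were higher and 0 were lower, where 9.95% of all genes passed, 5.21% higher and 4.74% lower. For all 27 the 95% interval of the difference included 0. It lay wholly within 1 log2 unit of 0 only for Acly and Fdft1, so that for the other 25 genes the interval reached a 2-fold change in at least 1 direction.

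**Figure D1:**
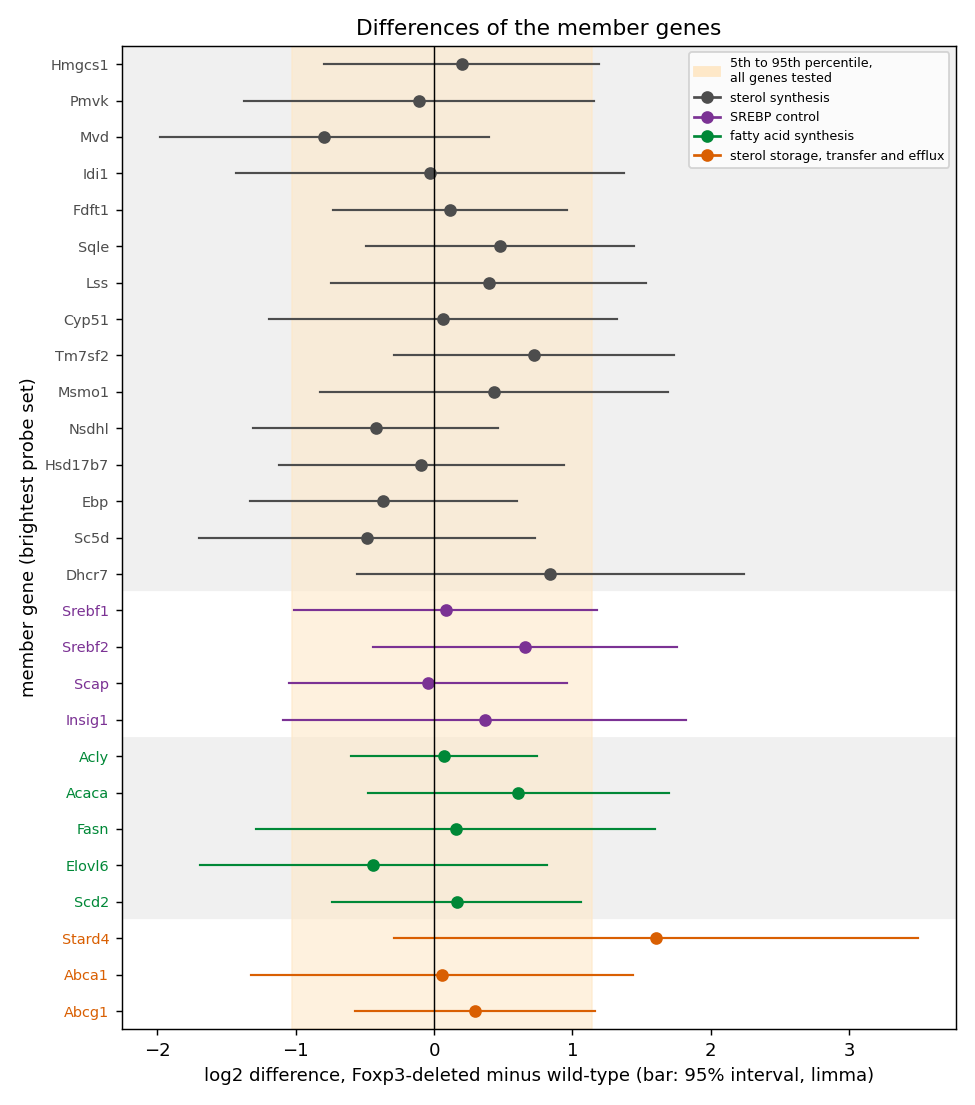
Log2 difference (Foxp3-deleted minus wild-type, x axis) of each of the 27 tested genes, by role, with its 95% interval from limma (n = 2 arrays per group); the shaded band spans the 5th to 95th percentile of all genes tested, from -1.03 to 1.14. Every interval crosses 0, and only the point of Stard4 lies outside the band.

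Differences of at least 1 log2 unit with no overlap between the groups were found for 1 gene, Stard4, which was higher in deleted cells, where 5.57% of all genes were higher and 4.93% lower by that measure. By the same measure 0 members were lower. Without wild-type replicate 1 the difference of Stard4 was 0.70. With 1 array left in a group, a lack of overlap is reached more easily, so counts from such fits cannot be set beside these. The 2 groups did not overlap for 9 of 27 genes, 7 higher and 2 lower, beside 39.7% of all genes, 17.7% higher and 22% lower. In 26 of the 27 genes the gap between the replicates of 1 group was larger than the difference between the groups, beside 74.9% of all genes.

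Promoter sequence is shown for the 4 tested genes with the largest absolute difference that have an entry in the RefSeq promoter table (mouse build GRCm38.p6). Stard4 had no entry. The genes were picked by their values in these same data, so the choice supports nothing about the program. Each window holds 300 bases around the annotated start, 5′ to 3′ on the gene's own strand. Capitals mark matches, on either strand, to CCAAT (the NF-Y box), GGGCGG (the Sp1 box), CACGTG (an E-box) or TCACNCCAC (the sterol regulatory element that SREBPs bind), and a match was marked whether or not it overlapped another. NF-Y and Sp1 are the factors known to act together with SREBPs at such promoters. The Dhcr7 window is chr7:143822917-143823216 on the plus strand (the earliest of its 3 listed starts), Mvd is chr8:122443373-122443672 on the minus strand, Tm7sf2 is chr19:6067801-6068100 on the minus strand and Srebf2 is chr15:82147019-82147318 on the plus strand.
Dhcr7: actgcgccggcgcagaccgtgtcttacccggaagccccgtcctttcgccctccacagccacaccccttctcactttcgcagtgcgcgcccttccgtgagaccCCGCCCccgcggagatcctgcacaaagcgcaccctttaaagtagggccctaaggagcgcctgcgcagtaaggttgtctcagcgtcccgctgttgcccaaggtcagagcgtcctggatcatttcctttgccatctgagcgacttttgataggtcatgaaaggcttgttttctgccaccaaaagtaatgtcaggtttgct
Mvd: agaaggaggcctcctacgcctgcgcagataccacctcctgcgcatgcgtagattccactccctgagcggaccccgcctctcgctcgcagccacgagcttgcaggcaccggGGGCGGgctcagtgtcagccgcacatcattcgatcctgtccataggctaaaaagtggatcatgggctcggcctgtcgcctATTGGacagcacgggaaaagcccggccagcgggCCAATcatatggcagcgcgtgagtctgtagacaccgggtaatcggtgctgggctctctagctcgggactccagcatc
Tm7sf2: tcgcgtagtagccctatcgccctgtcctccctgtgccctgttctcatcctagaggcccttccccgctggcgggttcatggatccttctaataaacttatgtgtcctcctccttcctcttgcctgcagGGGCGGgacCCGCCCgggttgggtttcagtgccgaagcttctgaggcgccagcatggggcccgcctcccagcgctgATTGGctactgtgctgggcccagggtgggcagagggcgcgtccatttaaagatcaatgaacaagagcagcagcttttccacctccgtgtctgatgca
Srebf2: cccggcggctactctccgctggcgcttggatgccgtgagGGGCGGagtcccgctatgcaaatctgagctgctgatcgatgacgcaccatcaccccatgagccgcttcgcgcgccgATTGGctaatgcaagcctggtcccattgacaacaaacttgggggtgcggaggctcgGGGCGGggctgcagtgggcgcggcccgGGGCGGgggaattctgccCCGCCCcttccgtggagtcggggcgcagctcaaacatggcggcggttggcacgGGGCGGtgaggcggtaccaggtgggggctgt

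The CCAAT box was found 2 times in the Mvd window and 1 time each in those of Tm7sf2 and Srebf2, and 0 times in the Dhcr7 window shown. The GGGCGG box occurred 5 times in the Srebf2 window, 2 times in that of Tm7sf2 and 1 time each in those of Mvd and Dhcr7. Over the 29 windows of the 23 measured genes with an entry, 69.0% held CCAAT and 75.9% held GGGCGG, beside 37.4% and 35.7% of the 32851 windows in the table. CACGTG stood in 24.1% of these windows and in 7.15% of all, and TCACNCCAC in 1 of the 29, that of Hmgcs1, and in 1.24% of all. Of the windows shown, those of Mvd, Tm7sf2 and Srebf2 held both CCAAT and GGGCGG. Mvd had a lower mean in deleted cells, while Tm7sf2 and Srebf2 had a higher mean. The mean of Tm7sf2 reached the filter only through the deleted arrays. A match is only a description of the letters in the window.

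Along the mevalonate and sterol pathway the early enzymes differed by less than the spread between replicates, and the groups overlapped for all those tested but Mvd. Hmgcs1, the synthase that makes HMG-CoA, had log2 intensities of 10.50 and 11.32 in deleted cells compared with 10.42 and 10.999 in wild-type cells, a difference of 0.20 (SE 0.39, 95% interval -0.80 to 1.19, adjusted p = 0.92 in limma). The groups were interleaved. On 2 further probe sets above the filter Hmgcs1 was higher by 0.78 and 0.91, where wild-type replicate 1 was at 6.11 or less, while the other 3 arrays lay between 7.70 and 8.25. Mvk, the mevalonate kinase, did not reach the filter on either of its 2 probe sets, the brighter of which averaged 3.78 in deleted cells and 3.77 in wild-type cells. Pmvk, the next kinase, was at 6.79 and 6.78 in deleted cells compared with 6.28 and 7.49 in wild-type cells. Both deleted arrays lay between the wild-type arrays.

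Mvd, the decarboxylase that yields isopentenyl diphosphate, had the largest negative difference among the tested synthesis genes. It read 4.90 and 5.17 in deleted cells compared with 6.38 and 5.28 in wild-type cells. The deleted arrays were both below the wild-type arrays, but only by 0.10 from wild-type replicate 2. The difference of -0.79 (SE 0.47, 95% interval -1.98 to 0.40) had an adjusted p = 0.69 in limma, and without wild-type replicate 1 it was -0.24. Idi1, the isomerase that follows, differed by -0.03 (SE 0.55), with its deleted arrays (7.15 and 6.84) between its wild-type arrays (6.32 and 7.73). Fdps, which makes farnesyl diphosphate, lay below the filter on both of its probe sets, with no array above 3.45.

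The genes of the squalene steps had a higher mean in deleted cells on their brightest probe sets, by less than the gap between the replicates of 1 group. Fdft1, squalene synthase, read 9.31 and 9.81 in deleted cells compared with 9.34 and 9.55 in wild-type cells. Its difference was 0.11 (SE 0.33, 95% interval -0.73 to 0.96). A further Fdft1 probe set above the filter gave 0.56, with 5.69 and 5.87 in deleted cells compared with 5.34 and 5.10 in wild-type cells, an adjusted p = 0.69 in limma with every probe set tested. Sqle, squalene epoxidase, which is often called a rate-limiting step of the pathway, read 5.86 and 6.20 in deleted cells compared with 5.27 and 5.84 in wild-type cells. The groups were separated by only 0.03, and the difference of 0.48 (SE 0.38, 95% interval -0.49 to 1.44) had an adjusted p = 0.76 in limma. Lss, which closes squalene epoxide into lanosterol, differed by 0.40 (SE 0.45), while its further probe set above the filter differed by 0.54, with 5.16 and 5.08 in deleted cells compared with 4.52 and 4.62 in wild-type cells (adjusted p = 0.66 with every probe set tested). On these further probe sets of Fdft1 and Lss the groups did not overlap, and the difference was larger than the gap between replicates.

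From lanosterol to cholesterol the genes went both ways. Tm7sf2, a sterol reductase, read 4.39 and 4.74 in deleted cells compared with 3.42 and 4.26 in wild-type cells, a difference of 0.72 (SE 0.40, adjusted p = 0.67 in limma). Its mean reached the filter of 4 only through the deleted arrays (4.56, compared with 3.84 in wild-type cells), so its place among the tested genes and among those without overlap supports nothing. The difference was 0.43 with values below 4 raised to 4, 0.37 with 16 added to each intensity and 0.30 without wild-type replicate 1. Nsdhl, a dehydrogenase of the demethylation steps, was the reverse, with 6.25 and 6.31 in deleted cells compared with 6.88 and 6.53 in wild-type cells, a difference of -0.42 (SE 0.35) without overlap. Ebp, the sterol isomerase, differed by -0.37 (SE 0.38) and Hsd17b7, a ketoreductase, by -0.09 (SE 0.41). Msmo1, the methyl sterol oxidase, differed by 0.43 (SE 0.50), with the deleted arrays at 5.81 and 4.68 and the wild-type arrays at 4.51 and 5.11.

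Dhcr7, the reductase of the last step to cholesterol, had the largest positive difference among the tested synthesis genes, and it came from 1 array. It read 7.18 and 8.61 in deleted cells compared with 7.03 and 7.08 in wild-type cells. Deleted replicate 2 stood above the other 3 arrays, which lay between 7.03 and 7.18. The difference was 0.84 (SE 0.55, 95% interval -0.55 to 2.24, adjusted p = 0.71 in limma), and without deleted replicate 2 it was 0.12. By absolute difference 16.7% of all genes tested lay further from 0 than Dhcr7.

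Probe sets above the filter disagreed in sign for 3 genes. Sc5d, a sterol desaturase, was lower by 0.49 on its brighter probe set, with 4.98 and 4.87 in deleted cells compared with 6.004 and 4.82 in wild-type cells. On its other probe set Sc5d was higher by 0.62, with 5.99 and 4.79 in deleted cells compared with 4.32 and 5.22 in wild-type cells. The groups overlapped on both, and wild-type replicate 1 was the highest array on the brighter probe set and the lowest on the other. Cyp51, the lanosterol demethylase, differed by 0.07 and -0.21 on its 2 probe sets, with both groups overlapping on each. For Abcg1 the disagreement was between 0.30 and -0.01.

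**Figure D2:**
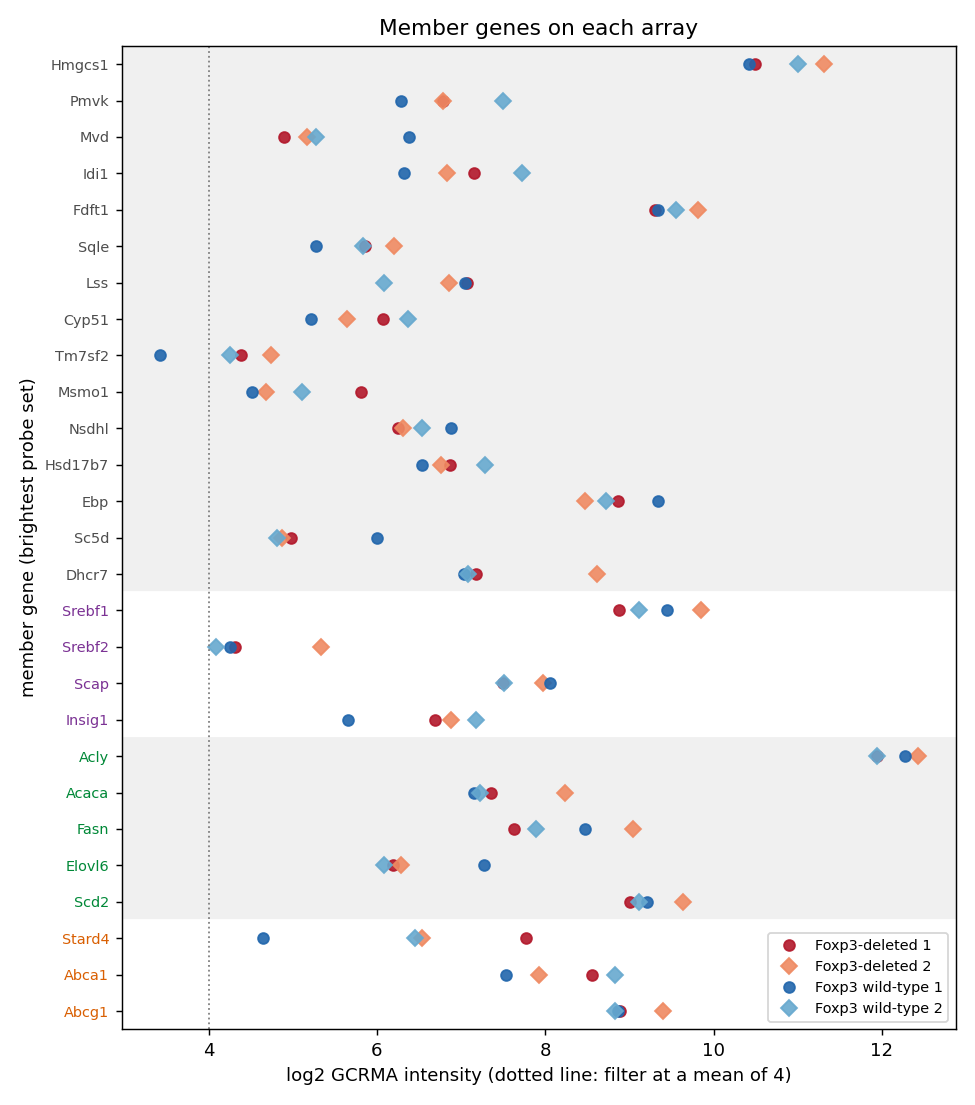
Log2 GCRMA intensity (x axis) of the brightest probe set of each tested gene on each of the 4 arrays, Foxp3-deleted in red shades and wild-type in blue shades. The colours are interleaved for most genes. Deleted replicate 2 is the highest array for 12 of 27 genes, beside 23.6% of all genes tested. Wild-type replicate 1 is the lowest for 13 of 27, beside 27.5% of all genes tested.

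Of the genes that control the program, none passed the threshold. Srebf2, which encodes the SREBP that mainly drives sterol genes, read 4.32 and 5.34 in deleted cells compared with 4.25 and 4.09 in wild-type cells. Only deleted replicate 2 stood clear of the wild-type arrays. The difference was 0.66 (SE 0.43, 95% interval -0.44 to 1.76, adjusted p = 0.71 in limma), and 0.15 without deleted replicate 2, and the other probe set of Srebf2 differed by 0.30. Srebf1, which encodes the SREBPs that mainly drive fatty acid genes, read 8.88 and 9.85 in deleted cells compared with 9.45 and 9.11 in wild-type cells. The wild-type arrays lay between the deleted arrays, and the difference was 0.08 (SE 0.43).

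Scap, the sterol sensor that escorts SREBPs, differed by -0.04 (SE 0.40), with 7.50 and 7.98 in deleted cells compared with 8.05 and 7.51 in wild-type cells. Insig1, the retention protein and itself a known SREBP target, read 6.69 and 6.88 in deleted cells compared with 5.66 and 7.18 in wild-type cells, a difference of 0.37 (SE 0.58, 95% interval -1.09 to 1.82). Its wild-type arrays were 1.52 apart and enclosed both deleted arrays. The 4 control genes had a median difference of 0.23, which turned to -0.069 if deleted replicate 2 was left out and came to 0.52 with deleted replicate 1 left out.

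In 4 of the 5 tested fatty acid synthesis genes the deleted arrays differed more from each other than the groups did. Acaca, acetyl-CoA carboxylase, read 7.35 and 8.24 in deleted cells compared with 7.15 and 7.22 in wild-type cells. Both deleted arrays were higher, replicate 1 by only 0.13, and the difference was 0.61 (SE 0.43, 95% interval -0.48 to 1.70, adjusted p = 0.74 in limma). Without deleted replicate 2 it was 0.17. Fasn, fatty acid synthase, read 7.63 and 9.04 in deleted cells compared with 8.47 and 7.89 in wild-type cells. The deleted arrays were the lowest and the highest of the 4, and the difference was 0.16 (SE 0.57, 95% interval -1.28 to 1.60).

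Acly, which makes cytosolic acetyl-CoA from citrate, read 11.94 and 12.42 in deleted cells compared with 12.28 and 11.94 in wild-type cells, a difference of 0.07 (SE 0.27, 95% interval -0.60 to 0.75). Scd2, the stearoyl-CoA desaturase read here, was at 9.01 and 9.64 in deleted cells compared with 9.21 and 9.11 in wild-type cells, a difference of 0.16 (SE 0.36). Its paralog Scd1 stayed below 2.87 on all arrays and both probe sets, and was not tested. Elovl6, which lengthens saturated fatty acids, went the other way, with 6.19 and 6.28 in deleted cells compared with 7.27 and 6.08 in wild-type cells, a difference of -0.44 (SE 0.50). On a further probe set above the filter Elovl6 was at 5.36 and 6.11 in deleted cells compared with 6.51 and 6.31 in wild-type cells, a difference of -0.67 with no overlap. The 5 tested genes had a median difference of 0.16, which was -0.17 without deleted replicate 2, -0.094 without wild-type replicate 2 and 0.48 without deleted replicate 1.

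The gap between deleted replicates ran in 1 direction in the SREBP control and fatty acid genes, though not in the other members. In all 9 tested SREBP control and fatty acid genes deleted replicate 2 was higher than deleted replicate 1, beside 3859 of 8629 genes tested, and the median gap was 0.73 for the 4 control genes and 0.63 for the 5 fatty acid genes, beside 0.42 over all genes. In the 15 sterol synthesis genes deleted replicate 2 was the higher array in 7. It was higher in 1 of the 3 tested genes of sterol storage, transfer and efflux, and in 17 of all 27 genes. Joining the control and fatty acid genes was not among the planned results. Between the wild-type arrays the sterol synthesis genes had a median gap of 0.75, beside 0.43 over all genes, and in 10 of 15 wild-type replicate 2 was the higher. Gaps of at least 1 between wild-type arrays were found for 9 of the 27 genes, 6 with replicate 2 higher (Pmvk, Idi1, Cyp51, Insig1, Stard4 and Abca1) and 3 with replicate 1 higher (Mvd, Sc5d and Elovl6), beside 16.8% of all genes.

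Markers of dividing cells also differed between the deleted arrays. The summed intensity of 12 measured markers out of 13 listed was 11123 in deleted replicate 1 and 29834 in deleted replicate 2, compared with 20225 and 20579 in wild-type cells. Mki67 read 11.01 and 12.55 in deleted cells compared with 11.18 and 12.24 in wild-type cells, and Rrm2 read 10.02 and 12.49 in deleted cells compared with 12.03 and 11.67 in wild-type cells. All 12 lay above the filter, and all but Pcna were higher in deleted replicate 2 than in deleted replicate 1. Pcna read 11.39 and 10.77 in deleted cells compared with 10.11 and 10.78 in wild-type cells. The part of dividing cells in the spread of Fasn, Srebf1, Srebf2, Acaca and Dhcr7 was not tested. In such bulk samples fewer cells of a type and less RNA per cell cannot be told apart.

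**Figure D3:**
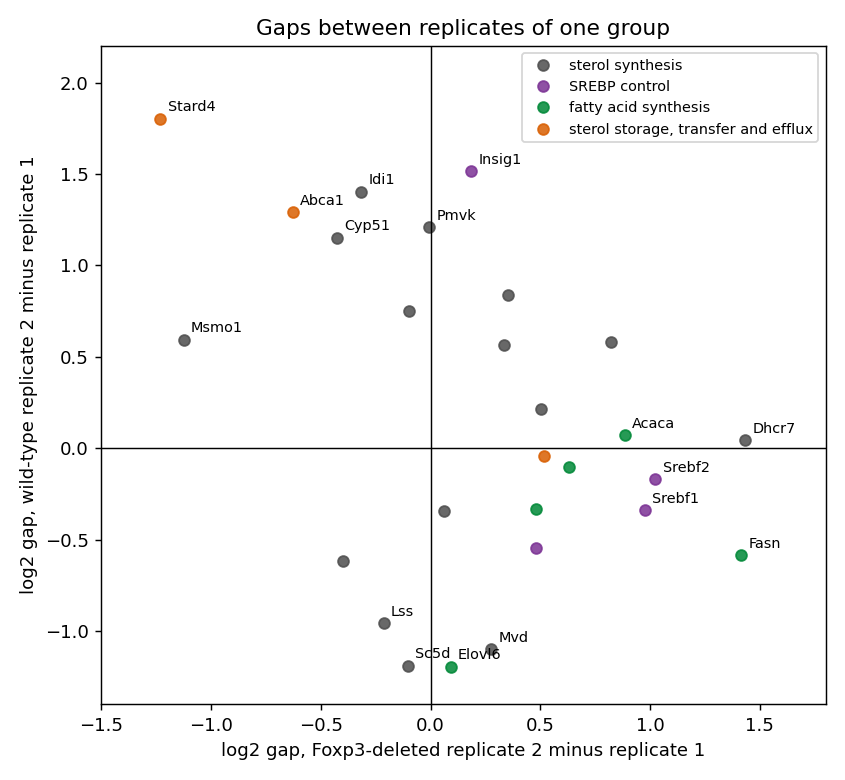
Gap between the replicates of 1 group for each tested gene, in deleted cells (replicate 2 minus replicate 1, x axis) and in wild-type cells (replicate 2 minus replicate 1, y axis), in log2 units and coloured by role. All SREBP control and fatty acid genes lie right of 0, while Stard4, Abca1, Idi1 and Cyp51 lie at the upper left.

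Stard4 was the member with the largest difference. It encodes a small protein that carries cholesterol between membranes and is itself a known SREBP target. On its brightest probe set Stard4 read 7.77 and 6.54 in deleted cells compared with 4.65 and 6.45 in wild-type cells, or 7.15 ± 0.87 in deleted cells and 5.55 ± 1.27 in wild-type cells (SD, n = 2 each). Both deleted arrays were above both wild-type arrays, replicate 2 by only 0.09. The difference of 1.60 (SE 0.75, 95% interval -0.29 to 3.49) is 3.04-fold and had an adjusted p = 0.60 in limma. By absolute difference 3.96% of all genes tested lay further from 0.

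All 3 probe sets of Stard4 pointed the same way without overlap, and 2 of them by at least 1 log2 unit, as did 6.66% of all probe sets above the filter. The next brightest had 7.23 and 8.14 in deleted cells compared with 4.20 and 5.73 in wild-type cells, a difference of 2.72, and here the groups lay further apart. With every probe set tested as its own row this difference had an unadjusted p = 0.0086 and an adjusted p = 0.33 in limma. The remaining probe set had 5.83 and 5.61 in deleted cells compared with 4.86 and 5.56 in wild-type cells, a difference of 0.51. Wild-type replicate 1 was the lowest array on all 3, and without it the difference on the brightest probe set was 0.70, while without wild-type replicate 2 it was 2.51.

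**Figure D4:**
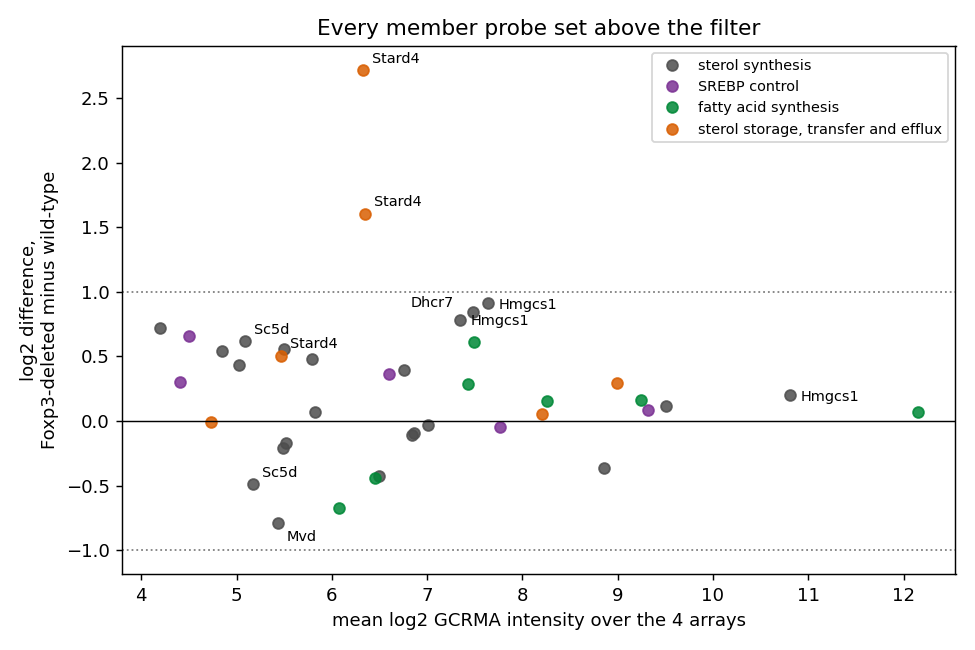
Log2 difference (Foxp3-deleted minus wild-type, y axis) of each of the 40 member probe sets above the filter against its mean log2 intensity over the 4 arrays (x axis), coloured by role, with dotted lines at 1 and -1. Of these, 2 lie above 1, both of Stard4 and without overlap, and 0 lie below -1, while the Hmgcs1 and Sc5d probe sets show how far probe sets of 1 gene can differ.

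The sterol exporters did not differ beyond their spread. Abca1, which loads cholesterol onto lipid-poor apolipoprotein, read 8.55 and 7.92 in deleted cells compared with 7.53 and 8.83 in wild-type cells, and the wild-type arrays enclosed the deleted arrays. The difference was 0.06 (SE 0.55, 95% interval -1.33 to 1.44). Its other 2 probe sets lay below 3 on every array. Abcg1, which exports cholesterol to lipoprotein particles, read 8.89 and 9.40 in deleted cells compared with 8.87 and 8.82 in wild-type cells, a difference of 0.30 (SE 0.34, 95% interval -0.57 to 1.16), and its other probe set was flat at 4.73 in both deleted arrays, against 4.74 in both wild-type arrays.

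Further genes of the same pathways, listed by pathway, included several with differences above 1, though 0 passed an adjusted p of 0.05 in limma. At an unadjusted p under 0.05, 3 of 13 further fatty acid genes were higher and 0 lower, beside the 5.21% and 4.74% of all genes. Acss2, which makes acetyl-CoA from acetate and is a known SREBP target, read 8.59 and 8.39 in deleted cells compared with 6.71 and 7.42 in wild-type cells, a difference of 1.43 (SE 0.40, adjusted p = 0.35). A further Acss2 probe set above the filter gave 2.14. Mid1ip1, which helps acetyl-CoA carboxylase to form active polymers, read 6.30 and 6.73 in deleted cells compared with 4.74 and 5.76 in wild-type cells, a difference of 1.26 (SE 0.47, adjusted p = 0.47). Acss1, the mitochondrial counterpart of Acss2, differed by 0.96 (SE 0.37). These 3 were named because they had the largest differences among the genes whose groups did not overlap. The groups did not overlap for 46.2% of the 13 genes, beside 39.7% of all genes.

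Of 6 tested further LXR genes, 1 was higher and 1 lower at an unadjusted p under 0.05 in limma, beside 5.21% and 4.74% of all genes. Pltp, the phospholipid transfer protein and a known LXR target, read 8.19 and 8.42 in deleted cells compared with 6.68 and 6.42 in wild-type cells. The deleted arrays were higher by at least 1.51, and the difference of 1.76 (SE 0.35) had an adjusted p = 0.21 in limma. Rxra, the retinoid X receptor that pairs with LXRs, was at 6.58 and 6.95 in deleted cells compared with 7.57 and 7.87 in wild-type cells, a difference of -0.95 (SE 0.36, adjusted p = 0.49). Apoe, an apolipoprotein and LXR target named after its values were seen, read 6.12 and 3.40 in deleted cells compared with 2.80 and 3.85 in wild-type cells, with deleted replicate 1 alone above 4. The mean of Apoe reached the filter only through that array, so its place among the tested genes supports nothing. Mylip, a ubiquitin ligase that LXRs induce, differed by 0.74 (SE 0.48), with 9.64 and 8.45 in deleted cells compared with 8.22 and 8.39 in wild-type cells.

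Of 7 tested further sterol genes, 1 was higher and 0 lower at an unadjusted p under 0.05 in limma, beside 5.21% and 4.74% of all genes. This was Lipa, the lysosomal lipase that frees cholesterol from its esters, with 9.11 and 9.10 in deleted cells compared with 8.17 and 8.40 in wild-type cells, a difference of 0.82 (SE 0.32, adjusted p = 0.50 in limma). The differences of its 3 probe sets above the filter reached 3.03. Stard3, a sterol carrier of late endosomes, was at 7.13 and 7.11 in deleted cells compared with 8.95 and 7.40 in wild-type cells, a difference of -1.05 (SE 0.58), with wild-type replicate 1 above the other 3 arrays. Of 6 further SREBP control genes, 0 passed the unadjusted threshold in either direction, where 9.95% of all genes passed. Rnf139, a ubiquitin ligase of the endoplasmic reticulum named after its values were seen, had the largest difference of these, 1.099, with 8.93 and 7.61 in deleted cells compared with 6.20 and 8.14 in wild-type cells, so that its groups overlapped. Fbxw7, part of the ligase that removes nuclear SREBP, differed by 0.89 (SE 0.55) and Insig2 by -0.56 (SE 0.37), while the 3 probe sets of Insig2 ranged from -0.56 to 0.95. Of 8 tested fatty acid oxidation genes 4 had a higher and 4 a lower mean, and the lower ones included Cpt2 (-0.38) and Acadvl (-0.32). The median difference of the 8 was 0.19, and the largest was 0.67, in a gene with a higher mean.

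Markers of myeloid cells, which are known to express Lipa, Pltp, Abca1 and Abcg1, were read beside these genes. The summed intensity of all 8 listed markers was 14032 in deleted replicate 1 and 3164 in deleted replicate 2, against 2512 and 4707 in wild-type cells, with 5 above the filter and Cd14 and Itgam below 4 on every array. Most of each sum was Lyz1, which read 13.57 and 11.31 in deleted cells compared with 10.87 and 12.03 in wild-type cells. Lyz2 read 9.69 and 6.30 in deleted cells compared with 5.65 and 7.24 in wild-type cells. Csf1r read 9.85 and 8.93 in deleted cells compared with 9.06 and 8.30 in wild-type cells. Fcer1g read 6.30 and 4.45 in deleted cells compared with 4.23 and 4.47 in wild-type cells. Adgre1 was nearly flat, at 4.33 and 4.44 in deleted cells compared with 4.36 and 4.32 in wild-type cells. All 5 above the filter had a higher mean in deleted cells, and the groups overlapped for each. Cd68, below the filter, read 4.34 and 2.75 in deleted cells compared with 2.67 and 2.64 in wild-type cells. The part of myeloid cells in Lipa, Pltp, Mylip and the members was not tested.

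**Figure D5:**
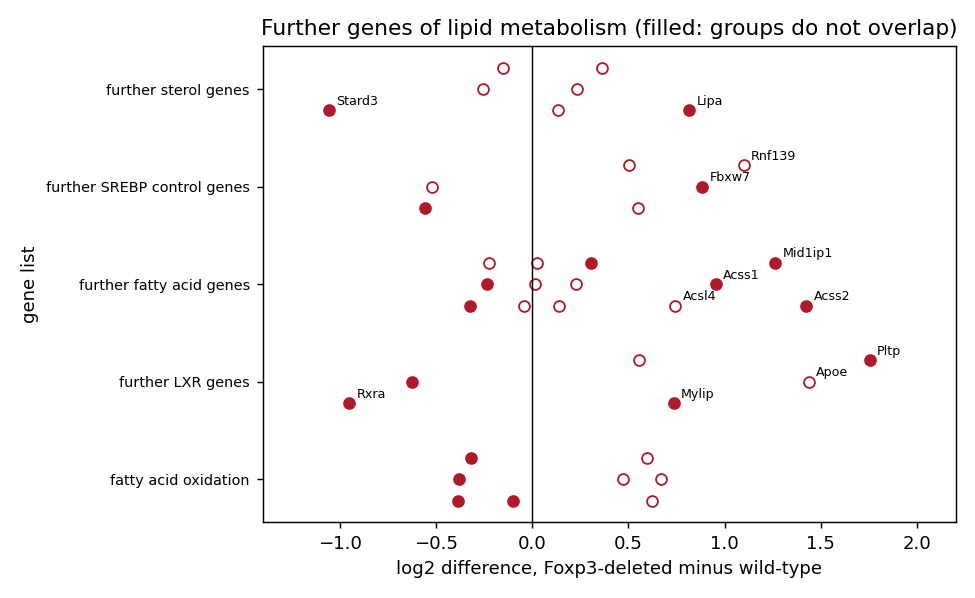
Log2 difference (Foxp3-deleted minus wild-type, x axis) of the tested genes of 5 further lists of lipid metabolism, 1 point per gene, filled where the 2 groups do not overlap. Pltp, Acss2 and Mid1ip1 lie above 1 without overlap, Apoe and Rnf139 lie above 1 with overlap, and Stard3 lies below -1.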

How the data were processed

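RNA of 4 samples was read on single-colour arrays. The deposited values are linear intensities that the authors made with GCRMA (version 1.1.3, per the submitters' processing notes). This method corrects background by probe sequence, normalizes arrays to one another and compresses dim values. Qiagen RNeasy and Ambion Message Amp II were used for extraction and biotin labelling, per the labels' protocols.

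Log2 was taken with no pseudocount. The 45101 probe sets comprised 34945 with 1 platform symbol, which were used, besides 932 with several, 9160 with none and 64 controls, which were not. Each of 18193 genes was represented by its brightest probe set, and the 8629 genes averaging 4 or more on the log2 scale entered lmFit and eBayes (trend by intensity) of limma 3.58.1 under R 4.3.3. Tests were two-sided, with Benjamini-Hochberg adjustment over those genes at a threshold of 0.05, on 2 residual and 3.30 prior degrees of freedom. In simulated data for these 8629 genes, 200 genes were changed, with a spread drawn from the fitted prior and independent between arrays. There, 0.3% of genes changed by 1 log2 unit were called, 8.8% by 2, 53.8% by 3 and 81.2% by 4. The rates depend on how many genes change, so they hold for that setting only. An exact permutation test of 2 against 2 arrays cannot give a two-sided p below 0.333, so none was used. Precision is limited by the number of arrays.

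Every member is named. Values on each array are given for Foxp3, for up to 4 members per role with the largest difference and for members whose probe sets disagree in sign, and other members were added after their values were seen. Of each further list at most 3 genes are named by rule, those with the largest difference whose groups do not overlap. Apoe and Rnf139, whose groups overlap, were added after their values were seen. The members, lists and rules were chosen with earlier results of these data known. Alternatives covered the filter, the choice of probe set, a pseudocount, a floor, normalization, the variance trend, each array left out and the replicate number as a block.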

Additional observations from a re-analysis of the deposited data

How the results depend on the processing

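No tested member passed an adjusted p of 0.05 under any of the 15 alternatives to the reported analysis. Over all genes, 27 passed with the stricter filter, 39 with the mean over probe sets, 60 with median centring, 35 with quantile normalization applied again and 0 under the other alternatives, while 0 members were among them. With every probe set as its own row, 2 probe sets, both of Stard4, were higher by at least 1 without overlap, beside 6.66% of all probe sets. The median of the sterol synthesis probe sets was then 0.16, and the median of the sterol synthesis genes was -0.030 with the stricter filter. With each array left out in turn that median ranged from -0.13 to 0.49. That of the SREBP control genes ranged from -0.069 to 0.52, and that of the fatty acid genes from -0.17 to 0.48. In these fits 0 to 3 members were higher by at least 1 without overlap, and 0 to 3 were lower by that measure. A lack of overlap is reached more easily with 1 array left in a group. The share of all genes was not read in these fits, so these counts support nothing. Acaca, Dhcr7, Ebp, Nsdhl, Stard4 and Abcg1 kept their sign in all 15, and Mvd, Sqle, Srebf2 and Tm7sf2 in the 14 that give them a value, the stricter filter leaving them out. For all of these but Ebp the groups did not overlap, so leaving out an array could not change the sign. The filter, the variance trend, the blocks and every probe set as its own row leave a gene's difference unchanged. The kept signs are therefore no support for these differences. With an array left out the differences of these genes ranged from 0.17 to 1.05 for Acaca, 0.12 to 1.56 for Dhcr7, -0.67 to -0.057 for Ebp, -0.59 to -0.25 for Nsdhl, 0.70 to 2.51 for Stard4, 0.038 to 0.55 for Abcg1, -1.34 to -0.24 for Mvd, 0.19 to 0.76 for Sqle, 0.15 to 1.17 for Srebf2 and 0.30 to 1.14 for Tm7sf2. Sc5d turned to 0.019 with the mean over probe sets. The other sign changes came from leaving out an array, over which the difference ranged from -0.21 to 0.61 for Hmgcs1, -0.71 to 0.50 for Pmvk, -0.73 to 0.67 for Idi1, -0.14 to 0.37 for Fdft1, -0.082 to 0.88 for Lss, -0.51 to 0.64 for Cyp51, -0.13 to 0.996 for Msmo1, -0.47 to 0.28 for Hsd17b7, -1.08 to 0.11 for Sc5d, -0.40 to 0.57 for Srebf1, -0.32 to 0.23 for Scap, -0.39 to 1.13 for Insig1, -0.17 to 0.31 for Acly, -0.55 to 0.86 for Fasn, -1.04 to 0.16 for Elovl6, -0.15 to 0.48 for Scd2 and -0.59 to 0.70 for Abca1. The lone array left in a group is then assumed to vary like the others, and the cause was not tested.

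The samples share only replicate numbers, and the deviations of same-numbered samples from their group means correlated at -0.30 over the genes tested. With the replicate block 0 genes and 0 members passed, and 587 genes had an unadjusted p under 0.05 in limma, beside 859 without it. With the numbers crossed, an alternative chosen after seeing the data, 0 passed and 1233 had an unadjusted p under 0.05. Dim probe sets limit what can be read of Mvk, Fdps and Scd1.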
